A study of Mus musculus with 6 samples.

Results

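The RNAs described here are the short entries of a table of piRNA cluster sequences, those of 18 to 24 nt. They were counted by small RNA sequencing of purified round spermatids, haploid cells that have completed meiosis. The 3 knockout (KO) libraries came from a mouse line with a global Miwi knockout and the 3 wild-type (WT) libraries from wild-type mice. All were C57BL/6 at postnatal day 21, and the cells were purified from testes. The labels do not say that each library is a separate animal, so p-values measure only the spread between these libraries, which may be technical. Per the series' design text, spermatids of Miwi KO males stop at an early round stage, so the KO and WT cells can differ in their mix of stages. Differences of genotype and of stage cannot be told apart here, nor can fewer cells of a kind and less RNA per cell. The tables hold small RNAs, so Miwi itself was not measured.

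Members were the entries of 18 to 24 nt with at least 15 counts summed over the 6 libraries. Entries of the same position, strand and length were added up and are called places below. The rule kept 9739 of the 9924085 entries and gave 9150 places in 311 of the 773 clusters. These places held 669021 counts, 53.4% of all counts at 18 to 24 nt. Members were thus selected on their total count over both genotypes, so abundance itself is no result. At the threshold, 833 entries had 15 counts and 953 had 14 counts, with 49.0% and 49.9% of their counts in KO libraries. A place at 0 counts in one genotype could be a member only through the other. Lengths and ends are those of the entries, since the table holds no read lengths.

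PIWI-interacting RNAs (piRNAs) guide PIWI proteins, which can cut RNAs that pair with the guide. In spermatids, MIWI (PIWIL1) mainly holds the longer pachytene piRNAs and MILI (PIWIL2) the shorter ones. A PIWI protein cuts its target between the bases that pair with guide bases 10 and 11, so the upstream piece of a cut target ends at the base opposite guide base 11. MicroRNAs (miRNAs) are cut from hairpins, and bases 2 to 8, the seed, lead target pairing. They are held by AGO proteins, not PIWI proteins, and served as the scale: levels are counts per 100 mature miRNA counts of the same library. Mature miRNA totals were 146487 to 243655 in KO libraries and 179761 to 246030 in WT libraries. The whole cluster table held 1009902 to 1785660 counts in KO libraries and 4059156 to 6623310 counts in WT libraries.

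Of the 9150 places, 132 lay on annotated miRNA genes, 109 on other small RNA genes and 8909 on neither. The 8909 are called short piRNAs, by exclusion. They were divided by their ends. A 5′ end shared with 25 to 28 nt RNAs was found at 4193 places, and one shared mainly with 29 to 32 nt RNAs at 2937 places. At 193 other places a 25 to 32 nt RNA on the opposite strand began 10 nt beyond the 3′ end. The remaining 1586 places had neither and are called unpaired. The division used counts of the longer RNAs summed over both genotypes, not the counts of the short RNAs.

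The following sequences show how the short RNAs relate to the longer ones. The first pairs are a short RNA and a longer RNA that starts at the same base, with the extra 3′ bases of the longer one in capitals. The DNA letters come from GENCODE M21 transcripts of GRCm38, which cover exons only.
4:135628173-135628196 (+), 24 nt: taatgtagtactggaagttcatgt
4:135628173-135628197 (+), 25 nt: taatgtagtactggaagttcatgtA
17:27357333-27357356 (+), 24 nt: taagagctagaatgccccctctgg
17:27357333-27357359 (+), 27 nt: taagagctagaatgccccctctggAGC
15:83354375-83354396 (-), 22 nt: ctcagaactagtgtatatttgg
15:83354367-83354396 (-), 30 nt: ctcagaactagtgtatatttggCCAAAAGG
7:125330223-125330244 (-), 22 nt: agcaacaacataaactgcgaaa
7:125330216-125330244 (-), 29 nt: agcaacaacataaactgcgaaaCAGGTGA

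The next pairs are a 19 nt RNA and a longer RNA of the opposite strand whose 5′ end lies 10 nt beyond it. Capitals mark bases 1 to 10 of the longer RNA, which lie outside the 19 nt RNA. The bases that follow, from base 11 on, pair with the 19 nt RNA from its last base backwards.
10:85744964-85744982 (-), 19 nt: agccataaagtactgccac
10:85744954-85744983 (+), 30 nt: TGTCAAGGTTgtggcagtactttatggctg
17:66193871-66193889 (+), 19 nt: ataagcatagatgtgcaag
17:66193870-66193899 (-), 30 nt: TAGAGACGGCcttgcacatctatgcttatt
10:75859519-75859537 (-), 19 nt: catcaactattacgacatg
10:75859509-75859538 (+), 30 nt: TGGCAGCGTTcatgtcgtaatagttgatgt
17:66195254-66195272 (+), 19 nt: gcttaccctctgacactgt
17:66195256-66195282 (-), 27 nt: TGCAAAGTGAacagtgtcagagggtaa

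Short piRNAs as a class were slightly higher in KO cells. Their level was 47.4, 45.2 and 43.2 per 100 miRNA counts in KO libraries, against 37.1, 39.4 and 40.5 in WT libraries. The groups did not overlap, and the KO mean was 1.16 times the WT mean (exact permutation test, two-sided, p = 0.1, the smallest p that 3 against 3 libraries can give). This small difference depended on the count minimum: with all 18 to 24 nt entries included, the KO level was 2.92 lower than the WT level. Relative to the 25 to 32 nt RNAs of the same table, short piRNAs stood at 11.01 ± 0.694 per 100 in KO libraries and 2.40 ± 0.175 in WT libraries (SD, n = 3 each). That ratio was 4.58 times higher in KO libraries, in which the longer RNAs were the scarcer.

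Place by place, edgeR's quasi-likelihood test with Benjamini-Hochberg adjustment over all 177643 places of the table called 2143 short piRNAs higher in KO and 1612 lower. These are 24.1% and 18.1% of the 8909. The balance of the calls depended on the tool: DESeq2 called 967 higher and 1315 lower. Over all places of the table, 12.2% were called higher and 60.5% lower. The median log2 change was 0.49 for short piRNAs, against -3.29 over all places. With places at 0 in one genotype set to a floor of 3 counts over that genotype, these medians were 0.49 and -2.49.

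**Figure D1:**
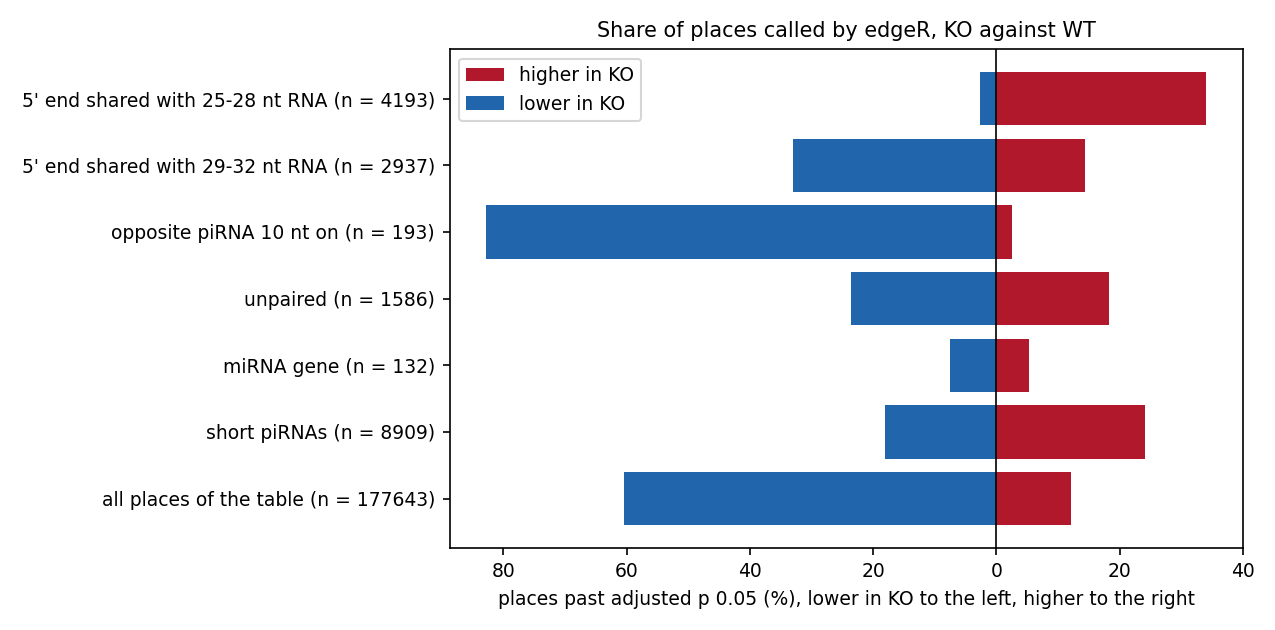
Share of places past an adjusted p of 0.05 in edgeR's test (x axis, percent), higher in KO to the right and lower in KO to the left, for each group and for all places of the table. Places sharing a 5′ end with 25 to 28 nt RNAs were called higher in 34.0% of cases, and places with an opposite piRNA 10 nt on were called lower in 82.9%.

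The rise sat with the shorter class of long RNAs. Places sharing a 5′ end with 25 to 28 nt RNAs had 18.7, 17.1 and 16.5 counts per 100 miRNA counts in KO libraries, against 8.72, 9.43 and 9.44 in WT libraries. Every KO library was above every WT library, and the KO mean was 1.89 times the WT mean (exact permutation p = 0.1, the smallest possible). edgeR called 1426 of the 4193 places higher and 109 lower, or 34.0% and 2.60%, beside 12.2% and 60.5% over all places. The 25 to 28 nt RNAs at the same ends went the same way, with 77.5 ± 4.47 in KO libraries and 39.4 ± 2.57 in WT libraries. The 29 to 32 nt RNAs at those ends averaged 7.92 ± 0.759 in KO libraries and 31.8 ± 4.79 in WT libraries (SD, n = 3 each). The short RNAs thus differed between genotypes in the direction of the 25 to 28 nt RNAs at their ends and against that of the 29 to 32 nt RNAs. The ends were grouped by the counts of these longer RNAs, so the levels of the longer RNAs are a description. Over all places of 25 to 28 nt, edgeR called 27.8% higher and 17.2% lower.

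Among these places the difference was present at each length and widest at 24 nt. At 24 nt the level was 9.32 ± 0.554 in KO libraries and 4.68 ± 0.220 in WT libraries, and at 19 nt it was 0.184 ± 0.0123 in KO libraries and 0.139 ± 0.00835 in WT libraries. The 24 nt RNA at 4:135628173, in an exon of the long noncoding RNA gene 1700029M20Rik, had 181, 105 and 118 counts in KO libraries and 11, 23 and 18 counts in WT libraries. The 24 nt RNA at 17:27357333, in an exon of the long noncoding RNA gene Gm49794, had 81, 51 and 82 counts in KO libraries and 30, 36 and 43 counts in WT libraries. Its 27 nt partner had 107, 64 and 123 counts in KO libraries and 28, 39 and 67 counts in WT libraries.

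**Figure D2:**
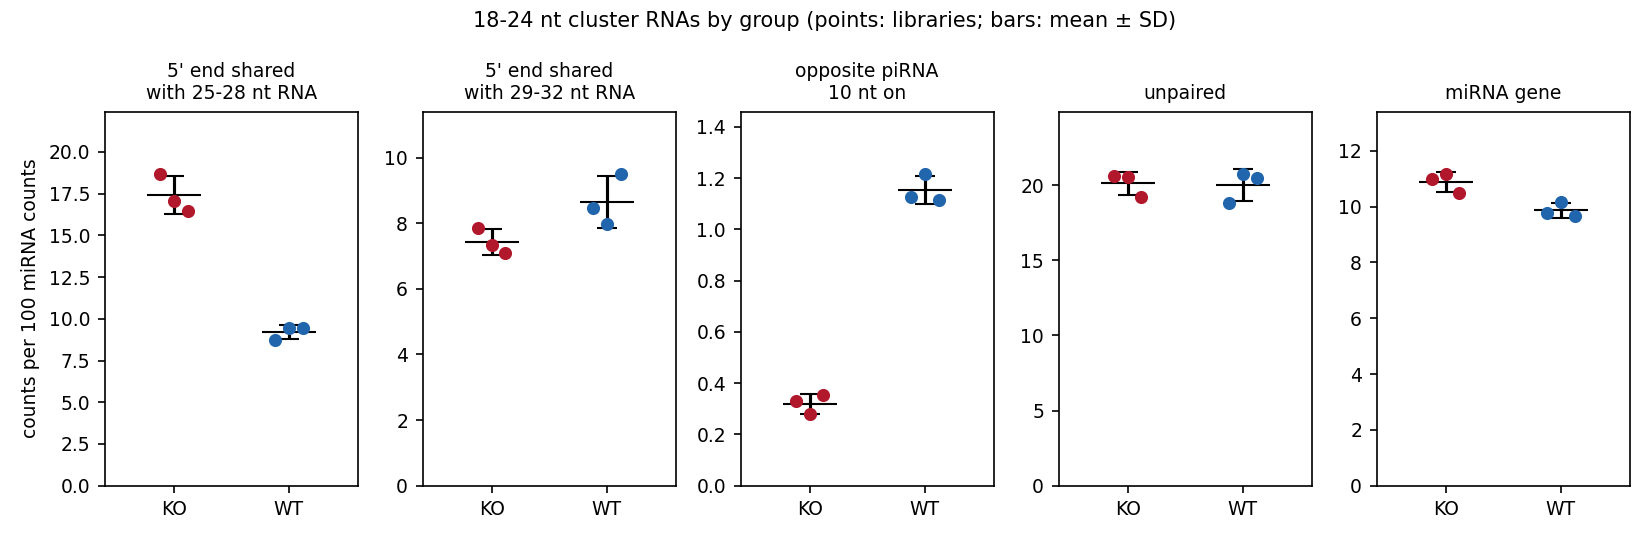
Level of each group (y axis, counts per 100 mature miRNA counts) in KO libraries (left) and WT libraries (right); points are libraries, and bars the mean and SD of 3. KO libraries lie above WT libraries for 5′ ends shared with 25 to 28 nt RNAs and below them for places with an opposite piRNA, and the unpaired places overlap.

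Places sharing a 5′ end with 29 to 32 nt RNAs kept most of their level while their longer partners did not. They had 7.85, 7.32 and 7.10 counts per 100 miRNA counts in KO libraries, against 8.47, 7.96 and 9.50 in WT libraries. The groups did not overlap, and the KO mean was 0.859 of the WT mean (exact permutation p = 0.1). The 29 to 32 nt RNAs at the same ends averaged 20.1 ± 1.76 in KO libraries and 376 ± 47.6 in WT libraries, 18.7-fold lower in KO. The 25 to 28 nt RNAs at those ends averaged 44.1 ± 1.64 in KO libraries and 45.1 ± 4.26 in WT libraries, and these groups overlapped. The direction of the short RNAs did not hold under every setting: with a minimum of 50 counts per place the KO level was 0.41 higher.

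Length divided these places. At 18, 19 and 20 nt their levels were 3.06-fold, 3.23-fold and 3.33-fold lower in KO libraries. At 23 nt they averaged 1.62 ± 0.0938 in KO libraries and 1.62 ± 0.102 in WT libraries, and at 24 nt 3.87 ± 0.257 in KO libraries and 3.21 ± 0.234 in WT libraries. Of the 486 places of 18 to 20 nt, edgeR called 17 higher and 331 lower, or 68.1% lower beside 60.5% over all places. No KO library had a count at 89 of the 486, which could be members only through their WT counts. The calls and the fold differences at 18 to 20 nt include these places. Of the 1824 places of 23 or 24 nt it called 333 higher and 368 lower. These are 18.3% and 20.2%, beside 12.2% and 60.5% over all places. The 22 nt RNA at 15:83354375, in an exon of the long noncoding RNA gene 1700001L05Rik, had 130, 95 and 124 counts in KO libraries and 30, 41 and 64 counts in WT libraries. Its 30 nt partner had 0, 0 and 1 counts in KO libraries and 205, 234 and 286 counts in WT libraries. A 22 nt RNA at 7:125330223, in an exon of 4933440M02Rik, went with its partner instead: it had 3, 1 and 5 counts in KO libraries and 83, 23 and 136 counts in WT libraries, and its 29 nt partner had 65, 35 and 85 counts in KO libraries and 493, 490 and 904 counts in WT libraries.

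**Figure D3:**
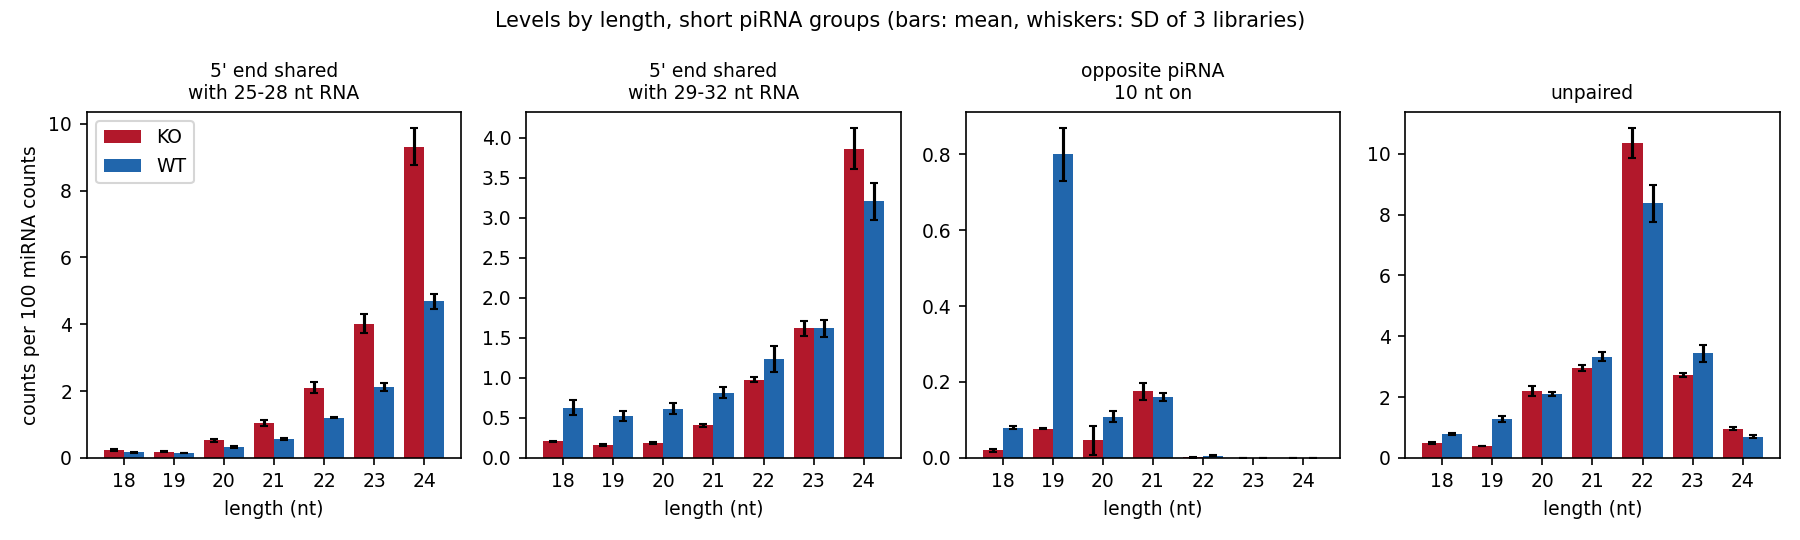
Level by length (x axis, nt; y axis, counts per 100 mature miRNA counts) in the short piRNA groups, KO bars left of WT bars, with whiskers for the SD of 3 libraries. RNAs of 24 nt are higher in KO in both groups with a shared 5′ end, and 19 nt RNAs with an opposite piRNA average 0.0769 in KO and 0.800 in WT.

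The largest fold difference between the genotypes' length shares was at 19 nt, and the largest in percentage points at 24 nt. RNAs of 19 nt made up 1.81% ± 0.135 of short piRNA counts in KO libraries and 7.02% ± 0.289 in WT libraries (SD, n = 3 each). At 24 nt the shares were 31.2% ± 0.569 in KO libraries and 22.04% ± 0.425 in WT libraries. The mean length was 22.44 nt in KO libraries and 21.96 nt in WT libraries, with no overlap. Places on miRNA genes differed in the same direction, though less. Their KO level was 0.721, 0.753 and 0.764 of the WT level at 18, 19 and 20 nt, and 1.16 times it at 24 nt. None of these groups overlapped. For short piRNAs the KO level was 0.299 of the WT level at 19 nt and 1.65 times it at 24 nt.

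Most of the 19 nt deficit came from places with no longer RNA at their 5′ end. These 453 places had 0.472 ± 0.00853 counts per 100 miRNA counts in KO libraries and 2.07 ± 0.157 in WT libraries, 4.39-fold lower in KO. Per 100 counts of the whole cluster table the same places stood at 0.0652 in KO libraries and 0.0876 in WT libraries, 0.744 of the WT level, without overlap (exact permutation p = 0.1). Of the 453, 157 (34.7%) had an opposite-strand RNA of 25 to 32 nt whose 5′ end lay exactly 10 nt beyond their 3′ end. At the other 50 offsets looked at, the median share was 3.64% and the highest 7.73%. The share at this offset was 11.7% for 18 nt places, 12% for 20 nt places and 0.823% for 22 nt places. The offset was singled out after its share had been seen, so these shares are a description.

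**Figure D4:**
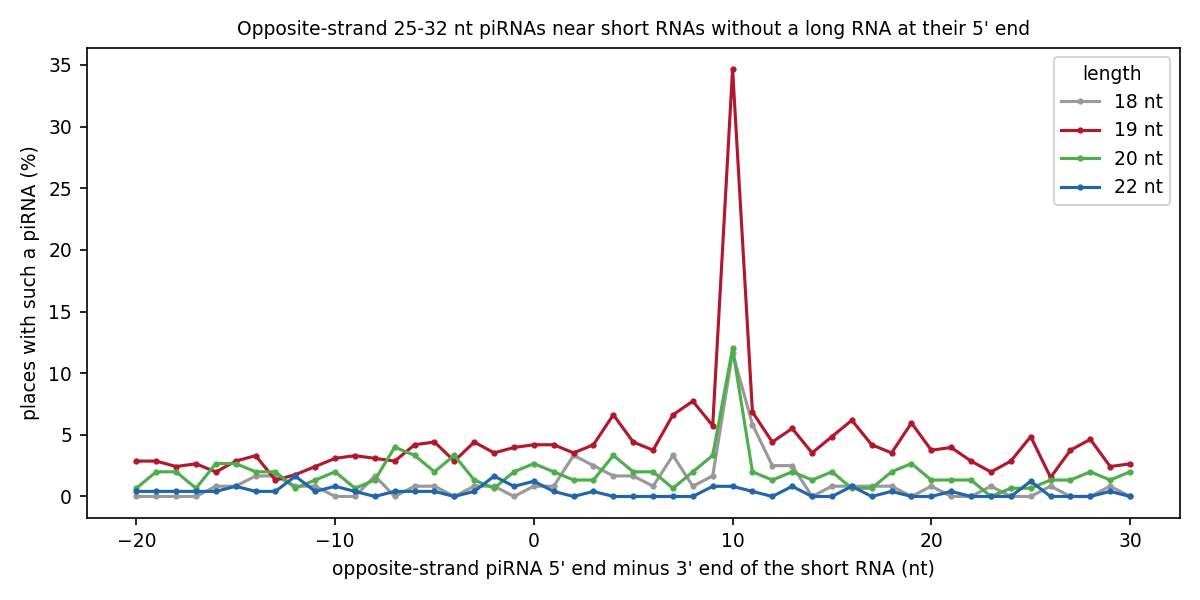
Share of short piRNA places without a longer RNA at their 5′ end (y axis, percent) that have an opposite-strand RNA of 25 to 32 nt starting at each distance from their 3′ end (x axis, nt), for 4 lengths. The 19 nt line reaches 34.7% at 10 nt and at most 7.73% elsewhere.

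The 157 places were 10.4-fold lower in KO as a sum. Together they had 480 counts in KO libraries and 4953 counts in WT libraries, and a level of 0.0769 ± 0.00169 in KO libraries and 0.800 ± 0.0694 in WT libraries. edgeR called 139 of the 157 lower and 3 higher, beside 60.5% lower over all places. In 136 of them every KO library lay below every WT library, which also held for 60.5% of all places. No KO library had a count at 84 of the 157, which were members through their WT counts alone and were all called lower. The other 73 places had 0.0769 ± 0.00169 in KO libraries and 0.338 ± 0.0217 in WT libraries. Of these, 55 were called lower and 3 higher, or 75.3% lower beside 60.5% over all places. Relative to the whole cluster table, all 193 places of every length with an opposite piRNA stood at 0.0440 per 100 counts in KO libraries and 0.0487 in WT libraries, and these groups overlapped (exact permutation p = 0.4).

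The other 296 unpaired places of 19 nt had 0.395 ± 0.00688 in KO libraries and 1.27 ± 0.0881 in WT libraries. edgeR called 193 of them lower and 14 higher, or 65.2% lower beside 60.5% over all places. No KO library had a count at 137 of the 296. Of the other 159, 56 were called lower and 14 higher, or 35.2% lower beside 60.5% over all places.

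The opposite-strand RNAs of the 157 places differed by length class. Their 29 to 32 nt RNAs averaged 0.605 ± 0.0549 in KO libraries and 9.96 ± 1.22 in WT libraries, and their 25 to 28 nt RNAs 2.49 ± 0.0753 in KO libraries and 1.48 ± 0.133 in WT libraries. As sums, the 19 nt RNAs thus differed in the direction of the longer class. Few of the 19 nt RNAs without a longer RNA at their 5′ end began with U, the usual first base of piRNAs. Of the 82 such places with sequence, 20.7% did, and of the 28 with an opposite piRNA 10 nt on, 14.3% did. Over all lengths the share was 16.7% of 36 places with an opposite piRNA and 56.6% of 256 unpaired places. It was 91.96% where the 5′ end was shared with 25 to 28 nt RNAs and 89.3% where it was shared with 29 to 32 nt RNAs.

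The 157 places lay in 45 clusters. The cluster 17:66164005-66233002 held 31 of them, with 126 counts in KO libraries and 890 counts in WT libraries. The cluster 13:50508082-50521025 held 25, with 6 counts in KO libraries and 1037 counts in WT libraries. The 19 nt RNA at 10:85744964, whose sequence is shown above, lies in the processed pseudogene Gm47362 and had 0 counts in each KO library and 20, 25 and 21 counts in WT libraries. That is at least 22.1-fold lower in KO, with 3 counts over the group as the floor. The 19 nt RNA at 17:66193871 had 3, 3 and 1 counts in KO libraries and 5, 16 and 18 counts in WT libraries, and the 30 nt RNA opposite to it 1, 0 and 0 counts in KO libraries and 5, 6 and 12 counts in WT libraries. The 19 nt RNA at 10:75859519, in the coding sequence of Mif, a cytokine gene, had 2, 0 and 0 counts in KO libraries and 14, 9 and 16 counts in WT libraries. The 30 nt RNA opposite to it had 0, 1 and 0 counts in KO libraries and 71, 94 and 97 counts in WT libraries. All longer RNAs at that opposite 5′ end together had 52, 30 and 27 counts in KO libraries and 94, 116 and 121 counts in WT libraries. At 17:66195254 the 19 nt RNA and the RNA shown opposite to it went apart. The 19 nt RNA had 5, 2 and 2 counts in KO libraries and 10, 10 and 12 counts in WT libraries, with a log2 change of -1.80 (adjusted p = 0.00247, edgeR). The 27 nt RNA opposite to it had 53, 31 and 32 counts in KO libraries and 5, 12 and 7 counts in WT libraries. All longer RNAs at that opposite 5′ end together had 105, 80 and 77 counts in KO libraries and 100, 123 and 150 counts in WT libraries.

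Summed over lengths, unpaired places did not separate the genotypes. They had 20.6, 20.5 and 19.2 counts per 100 miRNA counts in KO libraries, against 18.8, 20.8 and 20.5 in WT libraries. The groups overlapped (exact permutation test, two-sided, p = 0.8), and the difference of means changed sign when single libraries were left out. Single lengths went apart. At 22 and 24 nt the KO mean was 1.24 and 1.37 times the WT mean. At 18, 19, 21 and 23 nt it was 0.630, 0.311, 0.889 and 0.796 of the WT mean. None of these lengths overlapped between the genotypes. Single abundant places carried much of the differences at 22 and 23 nt. At 22 nt the KO mean was 1.99 above the WT mean, and the place in Ubxn7 described next was alone 1.10 above. At 23 nt most of the difference lay at the place 7:30029891, given further below. edgeR called 18.3% of the 1586 places higher and 23.6% lower, beside 12.2% and 60.5% over all places. The unpaired places were led by a few abundant RNAs. A 22 nt place in an untranslated region of Ubxn7, at 16:32390318-32390339 (+), had 67974 counts, 12.9% of all short piRNA counts and all of those in its cluster. It had 13703, 9017 and 14661 counts in KO libraries and 8117, 10142 and 12334 counts in WT libraries, with a log2 change of 0.29 ± 0.18 (SE; adjusted p = 0.141, edgeR). Without it, short piRNAs stood at 39.3 ± 2.24 in KO libraries and 34.1 ± 1.47 in WT libraries.

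Several abundant unpaired places resembled abundant miRNAs without lying on a miRNA gene. Each place with sequence was compared, without gaps and with shifts of at most 2 nt, with 112 mature miRNAs of at least 500 counts, and 16 identical bases among the first 22 were called alike. Among the 256 unpaired places with sequence 31 were alike, and among the 24356 places of 25 to 32 nt off small RNA genes 51 were, or 0.209%. With at least 500 counts, 9 of the 18 unpaired places with sequence were alike. The place in Ubxn7, shown first because it was the most abundant, had 14 identical bases and is below that limit. In the pairs below, capitals mark bases shared by the place and the miRNA, and the miRNA sequences are from RefSeq (GRCm38.p6).
16:32390318-32390339 (+): tGaCtGTGTAgTTAGtTGAaca
miR-34b-5p: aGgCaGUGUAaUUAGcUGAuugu
11:3308605-3308626 (-): TGGCAGTGaAaTGTTAGCTtcc
miR-449a-5p: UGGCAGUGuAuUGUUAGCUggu
2:150343853-150343875 (+): TtTAcACATCCTTGACTGtcAta
miR-30e-5p: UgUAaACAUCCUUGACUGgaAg
4:116070583-116070605 (-): TGcaGTAGTAGGTTGTGTGGgag
let-7b-5p: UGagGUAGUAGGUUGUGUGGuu
1:33798405-33798425 (+): AAGCTGCCAGTTtAAaAAgga
miR-22-3p: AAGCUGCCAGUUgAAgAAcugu

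The counts of most of these places kept a narrow ratio to the counts of the miRNA they resembled. The place at 11:3308605, antisense to an untranslated region of Patz1, had 42.9 to 47.8 counts per 100 counts of miR-449a-5p over the 6 libraries. The place at 2:150343853 had 81.5 to 86.5 counts per 100 counts of miR-30e-5p, and the place at 1:33798405 had 95.5 to 100 counts per 100 counts of miR-22-3p. The ratio was wider for the place at 4:116070583, in an exon of Uqcrh, a respiratory chain gene, with 152 to 216 per 100 counts of let-7b-5p. For the place in Ubxn7 it was 22.6 to 30.7 per 100 counts of miR-34b-5p. Log2 changes of places and miRNAs lay close together for some pairs: 0.46 ± 0.19 for the place at 11:3308605 and 0.44 ± 0.15 for miR-449a-5p, and -0.35 ± 0.23 for the place at 1:33798405 and -0.36 ± 0.21 for miR-22-3p (SE). Others lay further apart. The place at 4:116070583 was at 0.20 ± 0.20 and let-7b-5p at -0.05 ± 0.19 (SE). The place in Ubxn7 was at 0.29 ± 0.18 and miR-34b-5p at 0.10 ± 0.13 (SE). Whether reads of the miRNAs were counted at these places was not tested, since the tables hold no reads.

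**Figure D5:**
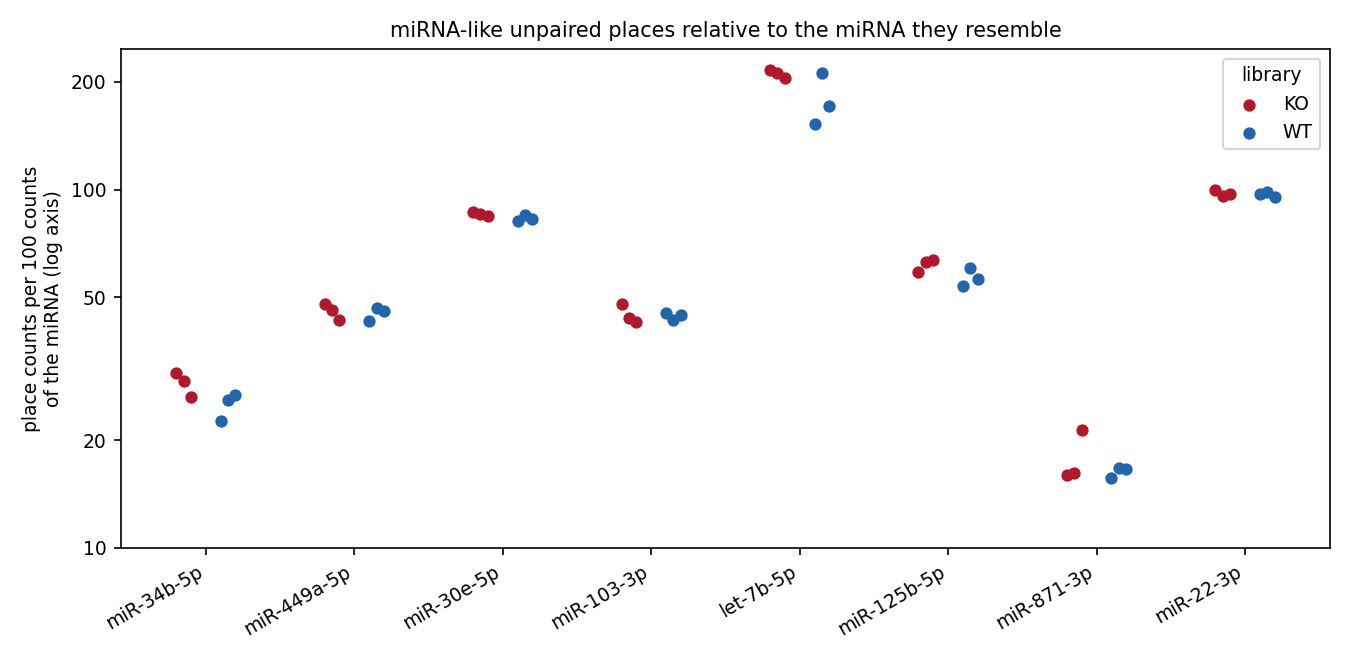
Counts of 8 abundant unpaired places per 100 counts of the miRNA each resembles (y axis, log scale; x axis, the miRNA), with KO libraries left of WT libraries and a point for each library. Most places keep a narrow ratio over the 6 libraries, as at 42.9 to 47.8 for miR-449a-5p.

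Other abundant unpaired places had no sequence in the transcripts. The 22 nt place at 4:123406182, in an intron of Macf1, a cytoskeletal crosslinker gene, had 2981, 1971 and 2128 counts in KO libraries and 897, 1271 and 1464 counts in WT libraries. Its log2 change was 1.00 ± 0.19 (SE; adjusted p = 6.03e-07, edgeR). The 23 nt place at 7:30029891, in no annotated gene, had 716, 429 and 868 counts in KO libraries and 1499, 1659 and 3070 counts in WT libraries, with a log2 change of -1.62 ± 0.20 (SE; adjusted p = 2.06e-15, edgeR). No KO library of either place overlapped a WT library. With the cluster table's total as the scale, the second place turned to a log2 change of 0.12.

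Of the 183 short piRNA places with at least 200 counts, 75 (41.0%) were higher in KO past the threshold and without overlap, and 32 (17.5%) lower. Over the 11522 places of the whole table with that many counts, these shares were 15.4% higher and 76.8% lower. The places named next had the largest changes, and are given as a description. The 24 nt place at 6:127814091 had 75, 57 and 70 counts in KO libraries and 0, 1 and 2 counts in WT libraries. The 21 nt place at 10:85763387 had 90, 50 and 151 counts in KO libraries and 4, 1 and 1 counts in WT libraries. Of the 6 largest rises, 5 shared a 5′ end with 25 to 28 nt RNAs and 5 were 24 nt long. Of all 8909 short piRNA places, 4193 shared such an end and 3592 were 24 nt long. The 19 nt place at 12:22987461, in an intron of the long noncoding RNA gene 2410018L13Rik, had 0 counts in each KO library and 65, 118 and 90 counts in WT libraries, at least 91.4-fold lower in KO. The 23 nt place at 15:74648038 had 0, 0 and 2 counts in KO libraries and 105, 133 and 184 counts in WT libraries.

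By cluster, short piRNAs were concentrated, with 40.7% of their counts in 5 of 300 clusters. The cluster 17:27283000-27370953, which overlaps the noncoding genes Gm49793 and Gm49794, held 2115 places and 18.1% of the counts. It stood at 10.5, 9.68 and 9.45 per 100 miRNA counts in KO libraries and 5.14, 5.42 and 5.64 in WT libraries, 1.83 times higher in KO. edgeR called 762 of its places higher and 70 lower, or 36.0% and 3.31%, beside 12.2% and 60.5% over all places. Of its counts, 71.7% lay at 5′ ends shared with 25 to 28 nt RNAs. The cluster 5:113316068-113373001, which overlaps Aym1, was 1.29 times higher in KO, and there 42.8% of the counts lay at such ends. The clusters 15:74625035-74667908 and 14:24078000-24124942 were 1.58 and 1.22 times higher in KO. Neither cluster's KO libraries overlapped its WT libraries.

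The miRNA genes among the members served as a comparison. Their 132 places had 10.98, 11.2 and 10.5 counts per 100 miRNA counts in KO libraries, against 9.75, 10.2 and 9.67 in WT libraries, with a KO mean 1.10 times the WT mean. The groups did not overlap (exact permutation test, two-sided, p = 0.1, the smallest possible). Short piRNAs, at 1.16 times, had the same outcome in that test. The genes of the Mir17 to Mir92-1 cluster, in an exon of Mir17hg on chromosome 14, held 88.4% of the counts on miRNA genes. Its miRNAs are known for promoting proliferation, and they are shown here with the seed in capitals (RefSeq, GRCm38.p6), since they form 4 seed groups.
miR-17-5p: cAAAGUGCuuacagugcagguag
miR-20a-5p: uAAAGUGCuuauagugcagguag
miR-18a-5p: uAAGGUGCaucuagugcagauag
miR-19a-3p: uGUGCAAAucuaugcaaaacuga
miR-19b-3p: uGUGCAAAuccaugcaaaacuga
miR-92a-3p: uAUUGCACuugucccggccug

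Summed by gene and tested with edgeR among all places, 1 of 18 miRNA genes was higher in KO and 1 lower, beside 12.2% higher and 60.5% lower over all places. The scale is itself the mature miRNA total, so these counts are relative to other miRNAs. TMM factors of the cluster table called 5 of the 18 higher, and the cluster table total 17. Mir7217 averaged 0.0165 ± 0.00349 in KO libraries and 0.00672 ± 0.00373 in WT libraries, and Mir468 0.0286 ± 0.00294 in KO libraries and 0.0647 ± 0.0130 in WT libraries (SD, n = 3 each). Mir7217 lies in an exon of Gm49794, within the cluster 17:27283000-27370953, whose short piRNAs were 1.83 times higher in KO. Mir7214 and Mir7218 lie in that cluster too and did not pass the test. The most abundant miRNA gene, Mir19b-1, had a level of 4.10 ± 0.139 in KO libraries and 3.94 ± 0.154 in WT libraries, with a log2 change of 0.06 ± 0.19 (SE; adjusted p = 0.796, edgeR). Mir19a and Mir18 had log2 changes of 0.25 ± 0.19 and 0.35 ± 0.19 (SE), and neither passed the test. Mir20a, Mir26a-2, Mir7-1, Mir17, Mir301, Mir92-1 and Mir7214 did not pass it either, with log2 changes between -0.17 and 0.28. Of the 12 mature miRNAs of the Mir17 to Mir92-1 cluster, 10 could be tested in the small RNA table, where 1, miR-18a-5p, rose with a log2 change of 0.34 ± 0.15 (SE; adjusted p = 0.0365, edgeR). The call disappeared when KO library 1 or 2, or WT library 1 or 3, was omitted, while DESeq2 and TMM factors of the small RNA table each called all 10 higher. Among mature miRNAs, 5.44% of the 478 tested were called higher and 11.9% lower.

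Counts at miRNA genes followed the mature miRNA counts of the small RNA table library by library. Mir18 places held 75.5 to 77.0 counts per 100 counts of miR-18a-5p, and Mir26a-2 places 112 to 116 per 100 counts of miR-26a-5p, the narrowest ranges. Wider ones were 106 to 119 per 100 counts of miR-17-5p for Mir17 and 51.0 to 64.4 per 100 counts of miR-92a-3p for Mir92-1. Whether the same reads entered both counts was not tested. For Mir19b-1, 52.3% ± 0.913 of the counts in KO libraries and 53.1% ± 0.351 in WT libraries began at the first base of miR-19b-3p. A further 47.7% ± 0.920 in KO libraries and 46.7% ± 0.357 in WT libraries began 1 nt upstream. For Mir19a, 96.9% ± 0.634 in KO libraries and 96.7% ± 0.115 in WT libraries began at the first base of miR-19a-3p. The 109 places on other small RNA genes averaged 0.906 ± 0.0226 in KO libraries and 1.28 ± 0.252 in WT libraries. Of these, 2 were called higher and 32 lower, or 1.83% and 29.4%, beside 12.2% and 60.5% over all places.

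The cell type was checked with marker miRNAs of the small RNA table. The germ cell miRNAs miR-34b-5p, miR-34c-5p and miR-449a-5p had 252544, 92477 and 28539 counts, and miR-449a-5p was higher in KO (adjusted p = 0.0072, edgeR). The other germ cell miRNAs did not pass the test, with log2 changes of 0.10 for miR-34b-5p and 0.28 for miR-34c-5p. They were listed as markers of meiotic and postmeiotic germ cells alike, so they do not set round spermatids apart from cells in meiosis. The smooth muscle miRNAs miR-143-3p and miR-145a-5p had 4601 and 5887 counts in KO libraries and 7007 and 8108 counts in WT libraries, and both were lower in KO, with log2 changes of -0.60 and -0.47 (adjusted p = 0.000562 and 0.0109, edgeR). The endothelial miR-126a-3p had 4087 counts in KO libraries and 4314 in WT libraries, and the erythroid miR-451a had 22 counts in KO libraries and 53 in WT libraries and was lower in KO (adjusted p = 0.0077, edgeR). Of the erythroid miR-144-3p there were 3 counts in KO libraries and 11 in WT libraries, too few to be tested. The leukocyte miRNA miR-142a-3p had 499 counts in each genotype, and the Sertoli cell miRNA miR-202-5p 1077 counts in KO libraries and 1223 in WT libraries. Neither passed the test, nor did miR-126a-3p, miR-142a-5p, miR-223-3p and miR-202-3p. Since miRNA counts are the scale here, RNA of other cells enters it, and its part in the results was not tested.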

How the data were processed

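Small RNAs of round spermatids were sequenced in 3 KO and 3 WT libraries. The authors deposited raw counts per entry and library in a table of cluster sequences and a table of small RNAs. Per the file headers, featureCounts v1.5.0-p2 did the counting, and the submitters' processing notes also name cutadapt, DESeq2 and the build mm9. No source used here names the aligner, its allowed mismatches or the treatment of reads with several matches. No column of another sample was present.

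The members and lists were chosen with earlier results of these data known. The 10 nt offset, the division by ends and the comparison with miRNAs were chosen after the data had been seen. Entry lengths hold 20 nt more than the RNA, which were subtracted; this fits 249 of 249 tRNA entries with a length in their name. Positions match miRNA genes of GRCm38: 10 mature miRNAs had a place of at least 200 counts starting at their first base. Coordinates are therefore those of the deposited names, 1-based, read on GRCm38 with GENCODE M21 genes. A place belonged to a small RNA gene with an overlap of at least 15 nt. No genome sequence was used here, so first bases and similarity rest on exonic sequence, available for 14.6% of short piRNA places and 31.1% of their counts.

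The fit held all places with at least 15 counts, of every length, with mature miRNA totals as library sizes and no further factors, in edgeR 4.0.16 with R 4.3.3 (quasi-likelihood test, Benjamini-Hochberg adjustment, threshold 0.05, two-sided). Levels were compared by exact permutation over libraries. The counts have no molecular identifiers, so the floor of 3 counts covers counting error only. On simulated counts for all 177643 places, 45 of 100 changes of 4-fold and 4 of 100 changes of 2-fold were recovered, with 0 false calls. Only those places were changed in the simulation, while most places were called in the data. The adjustment was therefore stricter in the simulation, and these figures do not give the recovery or the false calls of the real fit. Libraries of a genotype differed by more than sampling noise (chi-square per degree of freedom 1.24 to 2.78), so none was counted once for another. Named places were the 8 most abundant short piRNAs, the 6 largest rises and falls among places with at least 200 counts and no overlap, the 12 most abundant miRNA genes and the 5 richest clusters; places with shared ends were named once, and some of them are summarised. Pairs shown with sequences were the most abundant of their group with sequence for both RNAs and a longer RNA of at most 30 nt (2 for each kind of shared 5′ end, 4 for opposite strands). Alternatives changed the scale, the filters, the tool (DESeq2 1.42.0), the replicate block and the libraries used.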

Additional observations from a re-analysis of the deposited data

How the results depend on the processing

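Short piRNAs called higher and lower, 2143 and 1612 in the report, numbered 967 and 1315 with DESeq2, which thus called more lower than higher, 746 and 312 with filterByExpr, 739 and 275 with a minimum of 50 counts, and 6108 and 798 with the cluster table total as the scale. The filters tested fewer places; for the other settings the cause was not tested. Places on miRNA genes called higher, 7 in the report, numbered 1 with DESeq2, 20 with TMM factors of the cluster table, 15 with TMM factors of the miRNAs, 108 with the cluster table total, 2 with filterByExpr, and 3 with a minimum of 50. Those called lower, 10 in the report, numbered 6 with either set of TMM factors and 2 with the cluster table total. miRNA genes called higher numbered 5 with TMM factors of the cluster table, 2 with those of the miRNAs and 17 with the cluster table total, which called 0 lower. DESeq2 and TMM factors of the small RNA table each called 10 mature miRNAs of the Mir17 to Mir92-1 cluster higher. In the fits of the cluster table, the scales moved the median log2 change of all places by -0.24 (DESeq2), 0.23 (TMM, cluster table), 0.13 (TMM, miRNAs) and 1.64 (cluster table total). These shifts are not those of the fits of the small RNA table.

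Differences of levels, KO minus WT, reversed in few settings. With no count minimum, short piRNAs were at -2.92 and unpaired places at -3.18. Places sharing a 5′ end with 29 to 32 nt RNAs were at 0.41 with a minimum of 50 and at 0.66 with the cluster table total as the scale. Without single libraries the unpaired difference ran from -0.50 to 0.55, and was -0.13 without KO replicate 1, -0.11 without KO replicate 2 and -0.50 without WT replicate 1. The causes were not tested. Some differences kept their sign but shrank, with groups that overlapped: 1.43 for short piRNAs and 0.159 for miRNA genes at 19 to 23 nt, and 1.44 points for the share with a shared 5′ end where the longer RNA had at least 100 counts. With that minimum unpaired places were at 3.96, without overlap. With the cluster table total as the scale, 19 nt places without a longer RNA at their 5′ end were at 0.744 of the WT level, and places with an opposite piRNA at 0.904, with overlap. Other ranges without single libraries kept their sign: 5.19 to 7.33 for short piRNAs, 0.866 to 1.21 for miRNA genes, 8.30 to 8.98 for the ratio to long RNAs, 0.47 to 0.49 nt for mean length, 8.33 to 9.60 for the share with a shared 5′ end, 5.74 to 6.42 for the share starting with U, 7.59 to 8.69 for ends shared with 25 to 28 nt RNAs, -1.56 to -0.79 for ends shared with 29 to 32 nt RNAs, -0.852 to -0.802 for places with an opposite piRNA, and -1.65 to -1.51 for 19 nt places without a longer RNA at their 5′ end. Calls ranged from 1633 to 1920 short piRNAs higher and 1426 to 1535 lower, 1 to 12 places on miRNA genes higher and 7 to 9 lower, 1 to 2 miRNA genes higher and 1 lower, and 0 to 1 mature miRNAs higher and 0 lower.

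The labels give same-numbered KO and WT libraries a shared number and nothing more about pairing. Their deviations correlated at -0.0013, 0.027 and 0.070, and those of libraries with unlike numbers at -0.107 to 0.087. Whether same-numbered libraries share a batch was not tested. With the replicate number as a block, 1833 short piRNAs were higher and 1506 lower, 11 places on miRNA genes were higher and 8 lower, 2 miRNA genes were higher and 1 lower, and 2 mature miRNAs were higher.

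Of the named places and miRNA genes, 373 values under the alternatives kept direction and call, 19 passed the threshold only there, 6 no longer passed it and 18 changed sign. With the cluster table total, 7:30029891 was at 0.12, 15:83367893 at 1.44, Mir26a-2 at 1.54, Mir7-1 at 1.61, Mir17 at 1.63 and Mir468 at 0.55. With TMM factors of the cluster table, Mir26a-2 was at 0.051, Mir7-1 at 0.12 and Mir17 at 0.14, and with those of the miRNAs Mir7-1 was at 0.030 and Mir17 at 0.060. With DESeq2, 2:150343853 was at -0.091 and Mir19b-1 at -0.056. Leaving out single libraries gave ranges of -0.11 to 0.12 for 2:150343853, -0.052 to 0.29 for 5:136271187 and -0.15 to 0.025 for Mir17, all with a change of sign.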
